A study of Mus musculus with 11 samples.

Results

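The genes of the TAL1 complex were examined in cultured mouse cells of T-cell acute lymphoblastic leukaemia, abbreviated T-ALL, that were exposed to 3 compounds. The 8 members were Tal1, Lyl1, Lmo1, Lmo2, Lmo4, Ldb1, Gata3 and Myb. They were matched by gene symbol in the platform's probe annotation, and every probe set that named a member and no other gene was taken. This gave 10 of the 41345 probe sets on the array, 1 for each of 6 genes and 2 each for Gata3 and Myb. A further probe set lists Gata3 together with a pair of clone-named transcripts. It was kept apart, and it did not pass the test in any comparison.

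The line, called 720, came from a Tcf12+/- mouse that carried a Tal1 transgene driven by the promoter of the T-cell kinase gene Lck, and all 11 arrays share this genotype. Cells were exposed for 8 h to compounds labelled as inhibitors of the Runt domain, with which RUNX transcription factors bind DNA. The groups were AI-9-54 at 50 µM (4 arrays, replicates 1 to 4), AI-8-45 at 100 µM (4 arrays, replicates 1 to 4) and AI-7-54 at 100 µM (3 arrays, replicates 1, 3 and 4). Vehicle-treated cells were not analysed here, and every value sets a compound against another compound. AI-9-54 was given at a lower dose than the other compounds, so compound and dose cannot be told apart in any comparison with it. The compounds carry code names only, a single line was used, and the labels do not say whether replicates were separate cultures. The p-values therefore measure how much these arrays varied, which may be technical variation.

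TAL1 and LYL1 are basic helix-loop-helix (bHLH) factors that pair with E proteins such as those encoded by Tcf3 and Tcf12 and bind the E-box. The LIM-only proteins LMO1 and LMO2 bind the bHLH factor on one side and the adaptor LDB1 on the other, and LDB1 joins the assembly into larger complexes at enhancers. In T-ALL, GATA3, RUNX1 and MYB bind many of the same enhancers as TAL1, and the genes of these factors are among the targets.

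Promoter windows are shown for Gata3 and Myb, the members that passed the test between compounds, and for Tal1, the founding member. They are RefSeq sequences of build GRCm38.p6 and run from 250 bases before to 50 bases after an annotated start, written 5′ to 3′ on the strand of the gene. Capitals mark matches on either strand to 4 motifs, which were the E-box CAGNTG, the GATA motif AGATAA, the RUNX motif TGNGGT and the MYB motif AACNG.
Gata3, chr2:9878551-9878850, minus strand: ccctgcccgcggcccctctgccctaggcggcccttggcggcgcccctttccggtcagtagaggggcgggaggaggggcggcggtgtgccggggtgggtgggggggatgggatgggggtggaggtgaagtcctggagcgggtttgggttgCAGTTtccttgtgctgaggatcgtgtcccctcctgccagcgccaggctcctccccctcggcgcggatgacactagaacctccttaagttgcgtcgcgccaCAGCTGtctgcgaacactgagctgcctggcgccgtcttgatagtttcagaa
Myb, chr10:21160935-21161234, minus strand: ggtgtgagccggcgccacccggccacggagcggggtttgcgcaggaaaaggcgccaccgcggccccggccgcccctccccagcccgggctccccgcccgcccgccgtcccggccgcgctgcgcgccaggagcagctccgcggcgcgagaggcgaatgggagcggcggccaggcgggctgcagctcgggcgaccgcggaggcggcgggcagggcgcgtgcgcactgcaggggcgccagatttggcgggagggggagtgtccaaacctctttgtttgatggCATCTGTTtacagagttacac
Tal1, first annotated start, chr4:115056176-115056475, plus strand: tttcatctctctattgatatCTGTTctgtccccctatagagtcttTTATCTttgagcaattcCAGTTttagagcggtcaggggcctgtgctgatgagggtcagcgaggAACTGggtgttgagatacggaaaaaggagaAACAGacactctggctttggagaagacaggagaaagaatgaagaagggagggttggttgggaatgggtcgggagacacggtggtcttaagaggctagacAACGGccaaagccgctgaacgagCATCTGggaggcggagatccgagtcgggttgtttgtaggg

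Positions are counted from the start, with -1 the last base before it. The Gata3 window held 1 E-box beginning at -1 and 1 MYB match beginning at -101. The Myb window held 1 E-box beginning at 30, which overlapped its only MYB match, beginning at 33. The Tal1 window held 1 E-box beginning at 11, 1 GATA match beginning at -205 and 5 MYB matches. None of these 3 windows held the RUNX motif, and in the table the Lyl1 window alone among the members did.

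The table held 13 windows for 7 of the 8 members, and Lmo2 had no entry. An E-box was in 7 of the 13 windows, against 51.4% of all 32851 windows. The MYB motif was in 8 of 13, against 80.3% of all windows, and the GATA motif was in 2 of 13, against 11.2%. The RUNX motif was in 1 of 13, against 45.8% of all windows. The 2 windows of Lmo1 overlap, as do 2 of the 3 of Lmo4, and these matches are a description of the letters only.

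The values are log2 signals from robust multi-array averaging (RMA), a method that corrects background, equalises the arrays and combines the probes of a set. The arrays fell into 2 replicate sets, numbers 1 and 2 against numbers 3 and 4, which separated on the second principal component (16.2% of the variance). The set entered the model as a factor. It was noticed in an earlier analysis of these same arrays, so p-values that rest on it may be too small. The third component (12.6%) set AI-8-45 replicate 3 apart at -30.76, while the other 10 arrays lay between -8.839 and 10.93. Array medians were 6.61 to 6.68. Differences were tested with limma over all 41345 probe sets, with p-values adjusted by the Benjamini-Hochberg method, and a probe set was called at an adjusted p under 0.05. The 3 comparisons share arrays with each other and are not independent.

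The T-lineage identity of the line was visible on the arrays. All 12 measured T-lineage markers had a mean above the median of the table, and their mean was 10.67 to 10.81 on AI-9-54 arrays, 10.80 to 10.99 on AI-8-45 arrays and 10.93 to 11.14 on AI-7-54 arrays. The corresponding means over all arrays stayed at 5.86 to 6.02 for 9 B-lineage markers and at 5.79 to 5.89 for 11 myeloid markers. They were 6.58 to 6.68 for 9 erythroid and megakaryocytic markers and 6.88 to 7.02 for 9 stromal and endothelial markers. Above the median of the table were 1 of the B-lineage, 1 of the myeloid, 4 of the erythroid and megakaryocytic and 5 of the stromal and endothelial markers. None of the genes on these other 4 lists was called by limma in any comparison, and at most 2 per list had an unadjusted p under 0.05.

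Gata3 and Myb, the DNA-binding partners of the complex, gave lower signals in AI-9-54 cells than in AI-7-54 cells. The changes were -18.3% and -18.4% on Gata3 17381533 and 17366644, and -15% and -24.4% on Myb 17239664 and 17231999. Whether 17366644 and 17231999 read the mRNA was not tested, as set out below. No probe set of the bHLH factors, the LMO genes or Ldb1 was called in any comparison. Between AI-9-54 and AI-7-54, 4 of 10 member probe sets were called, all lower and from 2 genes. Of the whole table, 11% of probe sets were called in this comparison, 5.59% lower, and of the probe sets with 1 gene symbol 14.4% were called. Calls were more frequent among bright probe sets. When only the 20672 with a mean above the table median were tested, 5288 were called, among them 4 of 8 member probe sets. Between AI-9-54 and AI-8-45, 1 of 10 was called, Gata3 17366644, which was lower. In that comparison 1.24% of the table was called in either direction, 0.634% lower, and 1.79% of those with 1 symbol. Between AI-8-45 and AI-7-54, both at 100 µM, limma called 0 of 10, against 4.05% of the table (2.35% lower, and 5.7% of those with 1 symbol), and 2 of the 10 had an unadjusted p under 0.05. The median difference of the members was -0.15, -0.08 and -0.06 in these comparisons in turn, and that of the table was 0.0031, -0.0028 and 0.01.

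**Figure D1:**
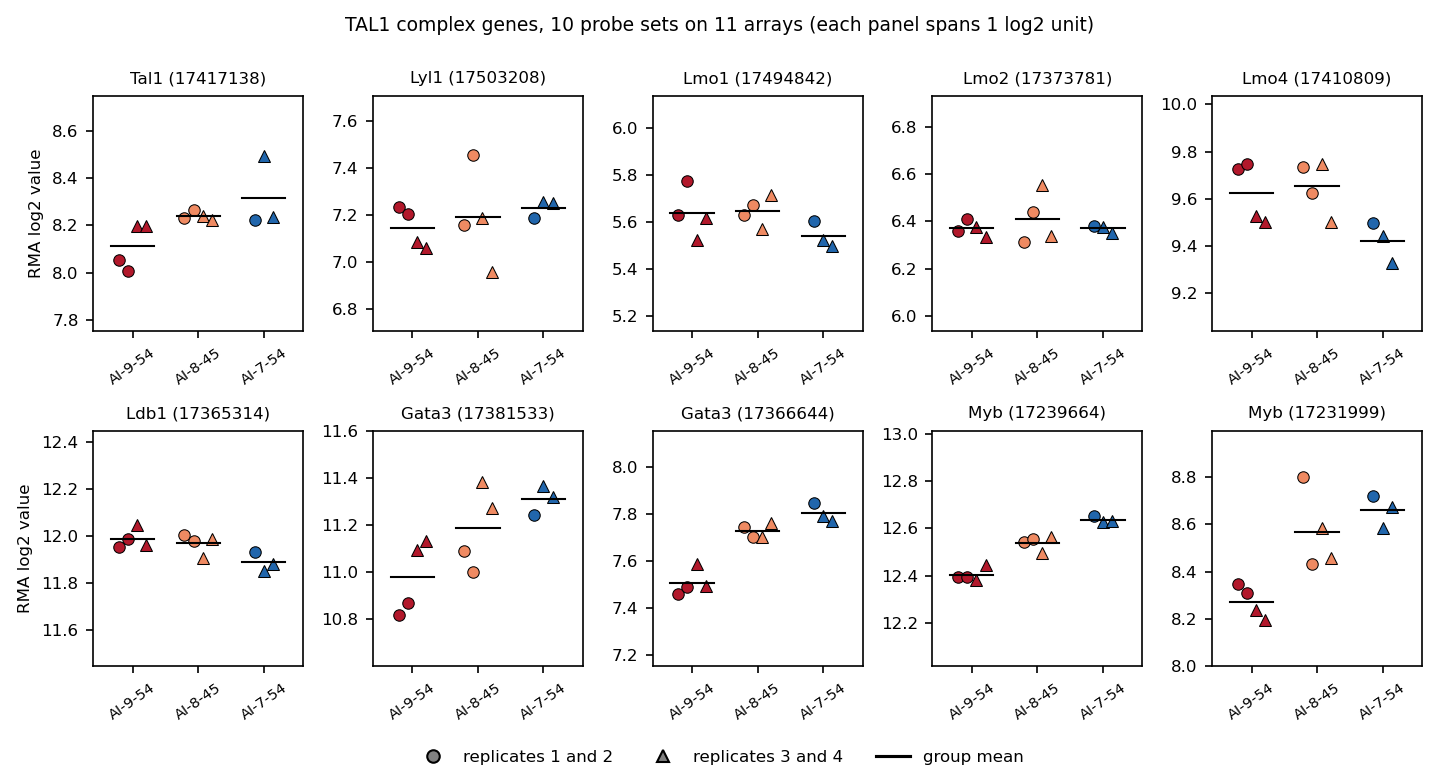
RMA log2 values of the 10 member probe sets (y axis, each panel spanning 1 log2 unit) by compound (x axis), with circles for replicates 1 and 2, triangles for replicates 3 and 4, and a bar at the group mean. On both Myb probe sets, on Gata3 17366644 and on Tal1 every AI-9-54 array lies below every AI-8-45 and AI-7-54 array. Lmo1 and Lmo2 lie at 5.50 to 5.77 and 6.31 to 6.55, below the array medians.

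Tal1, the bHLH gene that names the complex, gave 8.05, 8.01, 8.20 and 8.20 in AI-9-54 cells (replicates 1 to 4). It gave 8.23, 8.26, 8.24 and 8.22 in AI-8-45 cells and 8.22, 8.49 and 8.24 in AI-7-54 cells (replicates 1, 3 and 4). The AI-9-54 arrays did not overlap with either other group, and AI-7-54 replicate 3 was the highest array. The log2 difference between AI-9-54 and AI-7-54 was -0.19 (SE 0.07, 95% interval -0.34 to -0.04) and did not pass the test in limma (adjusted p 0.116). It was -0.19 among replicates 1 and 2 alone and -0.17 among replicates 3 and 4 alone. Without AI-7-54 replicate 3 it was -0.12.

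Against AI-8-45, Tal1 in AI-9-54 cells differed by -0.13 (95% interval -0.26 to 0.01, adjusted p 0.479 in limma). Between AI-8-45 and AI-7-54 the difference was -0.06 (-0.21 to 0.09, adjusted p 0.765). The species of the transgene is not given in the labels, and whether this probe set reads the transgene, the resident gene or both cannot be told apart. Lck, whose promoter drives the transgene, has no probe set with a single symbol in the annotation.

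Lyl1 encodes the bHLH factor closest to TAL1. Its probe set gave 7.23, 7.20, 7.09 and 7.06 in AI-9-54 cells, 7.16, 7.45, 7.19 and 6.96 in AI-8-45 cells and 7.19, 7.26 and 7.25 in AI-7-54 cells. The groups overlapped in every comparison, and AI-8-45 held both the highest and the lowest array. The differences were -0.11 between AI-9-54 and AI-7-54 (95% interval -0.30 to 0.09), -0.04 between AI-9-54 and AI-8-45 and -0.06 between AI-8-45 and AI-7-54, with limma adjusted p-values of 0.579, 0.905 and 0.838. Their sign changed between replicate sets or with 1 array left out.

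The LIM-only genes encode the bridging subunits. Lmo2, a T-ALL oncogene, gave 6.36, 6.41, 6.38 and 6.33 in AI-9-54 cells, 6.31, 6.44, 6.55 and 6.34 in AI-8-45 cells and 6.38, 6.38 and 6.35 in AI-7-54 cells. Lmo1, likewise a T-ALL oncogene, ranged from 5.52 to 5.77 in AI-9-54 cells, from 5.57 to 5.72 in AI-8-45 cells and from 5.50 to 5.60 in AI-7-54 cells. Both probe sets were dim, at percentiles 45 and 29 of the table, and the groups overlapped in every comparison. No background level was used here, so a dim signal is not an absence. Differences between such dim signals, between AI-9-54 and AI-7-54 0.08 for Lmo1 and 0.0019 for Lmo2, are given for completeness, and no fold is read from them. The smallest adjusted p of the pair was 0.48.

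Lmo4, the LMO gene that also acts in epithelial and neural development, was the brightest of the LMO probe sets relative to the table, at percentile 84.6. It gave 9.73, 9.75, 9.53 and 9.50 in AI-9-54 cells, 9.73, 9.63, 9.75 and 9.50 in AI-8-45 cells and 9.50, 9.44 and 9.33 in AI-7-54 cells. Every AI-9-54 and AI-8-45 array lay above every AI-7-54 array, although AI-7-54 replicate 1 and the lowest array of each other group round to the same value. The log2 difference from AI-7-54 was 0.18 for AI-9-54 (95% interval 0.03 to 0.33, adjusted p 0.145 in limma) and 0.21 for AI-8-45 (0.05 to 0.36, adjusted p 0.157). AI-9-54 and AI-8-45 differed by -0.03 (-0.17 to 0.11, adjusted p 0.929).

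Ldb1, the adaptor gene, was among the brightest probe sets of the table (percentile 98.3). It gave 11.95, 11.99, 12.04 and 11.96 in AI-9-54 cells, 12.00, 11.98, 11.91 and 11.99 in AI-8-45 cells and 11.93, 11.85 and 11.88 in AI-7-54 cells. The AI-9-54 arrays lay above the AI-7-54 arrays, and the AI-8-45 arrays overlapped with both. The difference between AI-9-54 and AI-7-54 was 0.10 (95% interval -0.0011 to 0.19) with a limma adjusted p of 0.234. AI-8-45 differed from AI-7-54 by 0.08 (-0.02 to 0.17, adjusted p 0.471), and AI-9-54 from AI-8-45 by 0.02 (-0.07 to 0.11, adjusted p 0.923).

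Gata3 encodes a zinc-finger factor that T cells need from their earliest stages. Probe set 17381533 gave 10.82, 10.87, 11.09 and 11.13 in AI-9-54 cells, 11.09, 10.999, 11.38 and 11.27 in AI-8-45 cells and 11.24, 11.37 and 11.32 in AI-7-54 cells. All AI-9-54 arrays lay below all AI-7-54 arrays, while AI-9-54 and AI-8-45 overlapped. In every group replicates 3 and 4 were higher than the arrays numbered 1 or 2, and the second set exceeded the first by 0.23 in the model. Within the sets the compounds kept the same order of means.

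On probe set 17381533, Gata3 fell in AI-9-54 cells relative to AI-7-54 cells, by a log2 difference of -0.29 (SE 0.05, adjusted p 0.0068 in limma). The first replicate set alone gave -0.40, and the second gave -0.23. The call rests on the replicate set, since without the set in the model the difference was -0.33 with an adjusted p of 0.081. Against AI-8-45 the difference was -0.21 (95% interval -0.32 to -0.10) and did not pass (adjusted p 0.0893), and between AI-8-45 and AI-7-54 it was -0.08 (-0.20 to 0.04, adjusted p 0.544).

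The other Gata3 probe set, 17366644, gave 7.46, 7.49, 7.59 and 7.49 in AI-9-54 cells, 7.74, 7.70, 7.70 and 7.76 in AI-8-45 cells and 7.85, 7.79 and 7.77 in AI-7-54 cells. The groups did not overlap in any comparison. The AI-9-54 cells were lower than the AI-7-54 cells by a log2 difference of -0.29 (SE 0.04, adjusted p 0.0024 in limma), with -0.37 and -0.24 within the sets, and the call held without the replicate set in the model. The difference was -0.22 against AI-8-45 (SE 0.04, adjusted p 0.0345), with -0.25 and -0.19 within the sets. This second call was lost without the replicate set (adjusted p 0.0573) and when any 1 of 9 of the 11 arrays was left out, and it was kept without AI-7-54 replicate 1 or without AI-9-54 replicate 3. Those values ranged from -0.25 to -0.20. AI-8-45 and AI-7-54 differed by -0.07 (95% interval -0.17 to 0.03, adjusted p 0.523).

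Myb encodes the founding member of the MYB factors and is an oncogene in T-ALL. Its bright probe set, 17239664, gave 12.39, 12.39, 12.38 and 12.45 in AI-9-54 cells, 12.54, 12.55, 12.50 and 12.56 in AI-8-45 cells and 12.65, 12.63 and 12.63 in AI-7-54 cells. The 3 groups did not overlap, with AI-9-54 lowest, AI-8-45 between and AI-7-54 highest. The AI-9-54 cells were lower than the AI-7-54 cells by a log2 difference of -0.23 (SE 0.04, adjusted p 0.00328 in limma), with -0.26 and -0.22 within the sets. The differences of -0.13 from AI-8-45 (95% interval -0.21 to -0.06, adjusted p 0.115) and of -0.10 between AI-8-45 and AI-7-54 (-0.18 to -0.02, adjusted p 0.218) did not pass.

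The second Myb probe set, 17231999, gave 8.35, 8.31, 8.24 and 8.20 in AI-9-54 cells, 8.80, 8.43, 8.59 and 8.46 in AI-8-45 cells and 8.72, 8.58 and 8.67 in AI-7-54 cells. The AI-9-54 arrays lay below all others, and AI-8-45 and AI-7-54 overlapped, with AI-8-45 replicate 1 the highest array of all. Whether this probe set reads the Myb mRNA was not tested. On it, the difference between AI-9-54 and AI-7-54 was the largest among the member probe sets, -0.40 (SE 0.08, adjusted p 0.00885 in limma). This difference was -0.39 and -0.41 within the sets. Against AI-8-45 it was -0.30 (95% interval -0.46 to -0.14, adjusted p 0.0971), and without AI-8-45 replicate 2 it was -0.37 and was called. AI-8-45 and AI-7-54 differed by -0.11 (-0.28 to 0.07, adjusted p 0.617).

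The strand that each probe set reads is not given in the annotation table, so the strands of the genes beside it in the order of the table were counted. Of the 10 named probe sets next to Gata3 17381533, 10 belonged to genes on the strand of Gata3, and the same held for Myb 17239664. For Gata3 17366644, 9 of the 10 neighbours belonged to genes on the opposite strand, and for Myb 17231999 all 10 did. For Tal1, Lyl1, Lmo1, Lmo4 and Ldb1, 9 or 10 of 10 were on the strand of the gene. Whether the second probe sets of Gata3 and Myb read the mRNA or a transcript from the other strand was not tested. The call between AI-9-54 and AI-7-54 was made on both probe sets of each gene. Without the replicate set in the model, Gata3 17381533 lost this call and Myb 17239664 kept it.

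**Figure D2:**
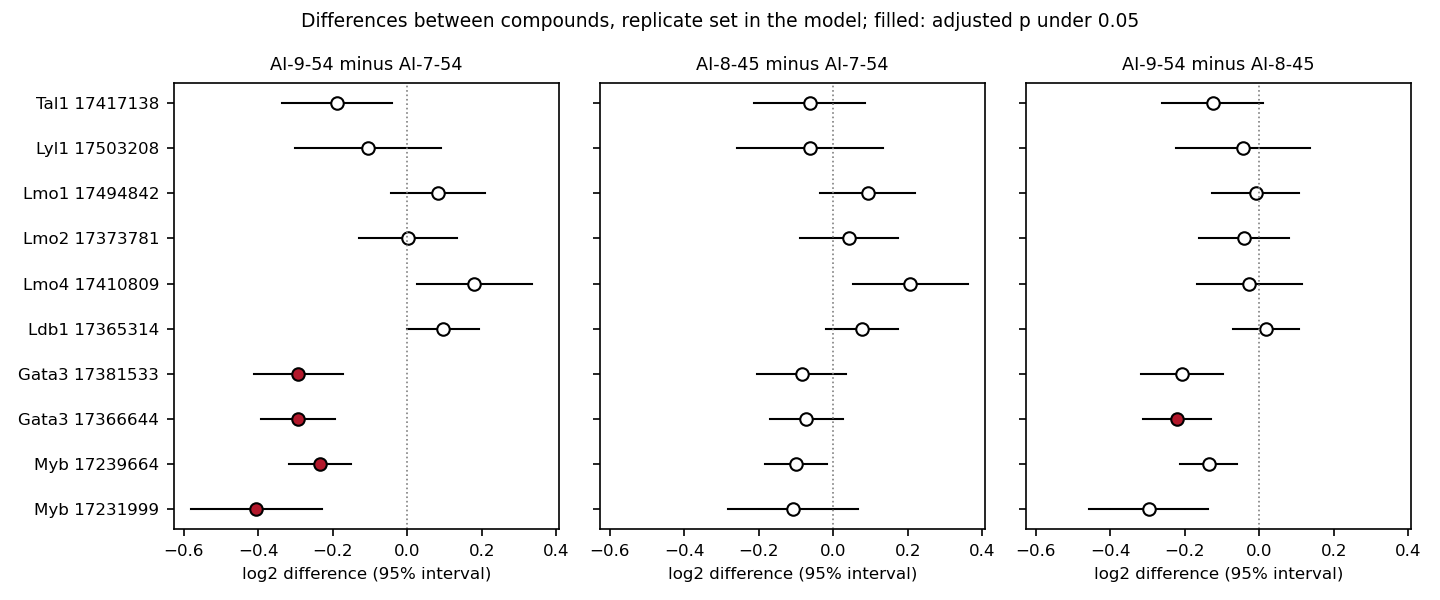
Log2 differences (x axis) of the 10 member probe sets (rows) in the 3 comparisons, with 95% intervals as lines, from the model with replicate set, and filled points where the adjusted p is under 0.05. The 4 filled points between AI-9-54 and AI-7-54 lie between -0.40 and -0.23, and the 1 filled point between AI-9-54 and AI-8-45 lies at -0.22.

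Counted by overlap of the arrays, 7 of 10 member probe sets had no overlap between AI-9-54 and AI-7-54, against 19.1% of the table. The count was 4 of 10 between AI-9-54 and AI-8-45, against 5.38%, and 3 of 10 between AI-8-45 and AI-7-54, against 12.6%. For Gata3 and Myb the group means ran in the same order on all 4 probe sets, with AI-9-54 lowest and AI-7-54 highest. Tal1 and Lyl1, which were not called, had the same order of means. For Lmo4, Ldb1 and the dim Lmo1 the AI-7-54 mean was the lowest. For the dim Lmo2 the AI-7-54 and AI-9-54 means both rounded to 6.37. In bulk RNA, fewer cells that express a gene and less RNA per cell cannot be told apart. On the T-lineage marker list, 6 of 12 genes were called lower and 0 higher between AI-9-54 and AI-7-54. Between AI-9-54 and AI-8-45, 4 were called lower, and between AI-8-45 and AI-7-54, where no member was called, 3 were. Of all genes, 7.48%, 0.902% and 3.51% were called lower in these comparisons in turn. Between AI-9-54 and AI-7-54, Cd3d, Cd3e, Cd3g, Zap70, Lef1 and Cd28 were not called. Without the replicate set, Notch1 lost both its calls and Ptcra its call between AI-8-45 and AI-7-54. Cd2, Cd5 and Thy1, which were called and stand on the marker list alone, were not examined without the set. The part of the marker list in these results was not tested.

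**Figure D3:**
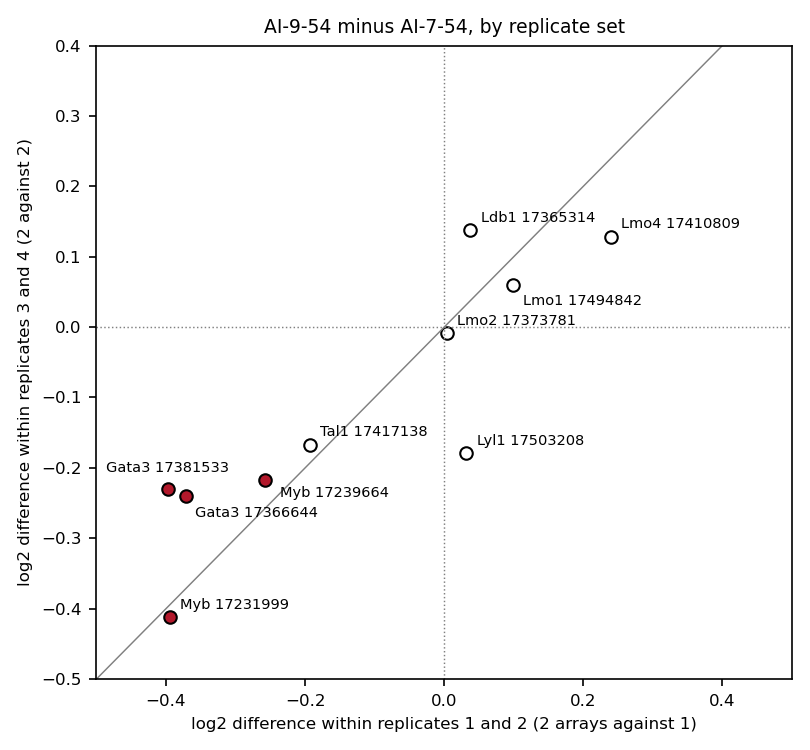
The log2 difference between AI-9-54 and AI-7-54 for each member probe set within replicates 3 and 4 (y axis, 2 arrays against 2) against that within replicates 1 and 2 (x axis, 2 arrays against 1), with the line of equality. The 4 filled points, called in the full model, lie below 0 in both sets, and Lyl1 (0.03 and -0.18) lies on opposite sides of 0.

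The replicate set itself moved some members, which is given as a description. The second set exceeded the first by 0.23 on Gata3 17381533 and was lower by a difference of -0.13 on Lmo4 and of -0.10 on Myb 17231999, with the same sign in all 3 compound groups. On Gata3 17366644 and Myb 17239664 the set differences were 0.01 and -0.0055. The 2 Gata3 probe sets thus differed from each other in how they varied with the set and matched in how they varied with AI-9-54 against AI-7-54.

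The genes most like each member over the arrays were taken by Pearson correlation after the mean of each replicate set was removed, among 11102 genes above the median of the table. The closest to Myb 17239664 was Prps2, a phosphoribosyl pyrophosphate synthetase (r = 0.995), and to Myb 17231999 it was C2cd2l (0.965). The closest to Gata3 17381533 was Tfap2a (0.986) and to Gata3 17366644 Gabbr2 (0.985), with the T-cell adhesion gene Cd2 among its next (0.976). The closest to Tal1 was Exo5 (0.917), to Lyl1 Krtap9-1 (0.963), to Lmo4 Scarna2 (0.953) and to Ldb1 Bend5 (0.971). The dim members Lmo1 and Lmo2 were closest to Kdm3b (0.927) and Pdzk1ip1 (0.908). These are the highest of many values over 11 arrays that share 3 compound groups.

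Partners of the complex moved in both directions. The gene lists were chosen with earlier results of these data known, so their counts are given as a description. Of 22 measured partners and cofactors, 4 were called higher and 3 lower between AI-9-54 and AI-7-54, where 7.11% of all genes were called higher and 7.48% lower. Cbfa2t3, a corepressor of the ETO family that joins TAL1 complexes, averaged 8.78 ± 0.20 in AI-9-54 cells and 9.67 ± 0.25 in AI-7-54 cells (SD, n = 4 and 3), a difference of -0.82 (adjusted p 0.000102 in limma). Ssbp2, a single-stranded DNA-binding protein that stabilises LDB1, averaged 10.41 ± 0.20 in AI-9-54 cells and 9.89 ± 0.04 in AI-7-54 cells, a difference of 0.54 (adjusted p 0.00645), while its paralogue Ssbp4 was lower by a difference of -0.24 (adjusted p 0.00179).

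The acetyltransferase genes Ep300, Crebbp and Kat2b were higher in AI-9-54 cells than in AI-7-54 cells, by 0.23, 0.20 and 0.18. Runx1 was lower (-0.26, adjusted p 0.00145), a call that was lost without the replicate set (adjusted p 0.236), as was that of Kat2b (0.0663). The E protein genes Tcf3, Tcf12 and Tcf4 differed by -0.02, -0.03 and 0.08 and were not called. The same held for Cbfb, the RUNX partner subunit (0.02), and for the corepressor genes Kdm1a, Rcor1, Hdac1 and Hdac2.

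Between AI-8-45 and AI-7-54, Ep300 was called higher (0.23, adjusted p 0.0492 in limma) and Cbfa2t3 lower (-0.33, adjusted p 0.0328), and neither held without the replicate set (adjusted p 0.0887 and 0.361). Of all genes, 2.37% were called higher and 3.51% lower in that comparison. Between AI-9-54 and AI-8-45, Cbfa2t3 (-0.49) and Runx1 (-0.18) were called lower and none higher, and both calls were lost without the set (adjusted p 0.338 and 0.584). Of all genes, 0.938% were called higher and 0.902% lower there.

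The paralogues of the DNA-binding partners gave a mixed result. Mybl1 was called higher between AI-9-54 and AI-7-54 (0.24, adjusted p 0.0187 in limma) and Mybl2, a MYB factor of proliferating cells, lower between AI-8-45 and AI-7-54 (-0.29, adjusted p 0.0233). Without the replicate set both were lost (adjusted p 0.374 and 0.139). The other 4 measured members of that list, Gata1, Gata2, Gata4 and Gata5, were not called in any comparison.

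Genes listed as targets of the TAL1 circuit in T-ALL also moved both ways. Of 9 measured between AI-9-54 and AI-7-54, 3 were called higher and 2 lower, against 7.11% and 7.48% of all genes. Arid5b, a chromatin-associated factor and TAL1 target in human T-ALL, averaged 9.99 ± 0.18 in AI-9-54 cells, 9.78 ± 0.12 in AI-8-45 cells and 9.16 ± 0.06 in AI-7-54 cells. It differed from AI-7-54 by 0.86 for AI-9-54 (adjusted p 3.84e-05 in limma) and by 0.65 for AI-8-45 (adjusted p 0.000606), and both calls held without the replicate set. Irs2 (0.31) and Trib2 (0.20) were higher and Cdk6 (-0.22) and Runx1 lower between AI-9-54 and AI-7-54, and none of these 4 calls held without the set. Between AI-9-54 and AI-8-45, Cdk6 (-0.22) and Runx1 were lower, and both calls were lost without the set.

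Of 8 measured MYB targets, 5 were called lower and 0 higher by limma between AI-9-54 and AI-7-54, where 7.48% of all genes were called lower and 7.11% higher. The median difference of the list was -0.29, against -0.0011 over all genes. This list and those of the GATA3 and E protein targets were chosen with earlier results of these data known. Their counts are therefore not independent evidence. The adenosine deaminase gene Ada averaged 8.43 ± 0.09 in AI-9-54 cells and 9.24 ± 0.13 in AI-7-54 cells (-0.83, adjusted p 0.000299). Myc averaged 11.49 ± 0.23 in AI-9-54 cells, 11.93 ± 0.09 in AI-8-45 cells and 12.00 ± 0.13 in AI-7-54 cells, and was lower in AI-9-54 cells than in AI-7-54 cells (-0.56, adjusted p 0.00047) and than in AI-8-45 cells (-0.44, adjusted p 0.00699). The chemokine receptor gene Cxcr4 was lower in both of these comparisons (-0.41 and -0.31). The other called genes against AI-7-54 were the cyclin gene Ccne1 (-0.17) and the recombinase gene Rag2 (-0.53). Rag2 was dim, with means of 5.70 in AI-9-54 cells and 6.16 in AI-7-54 cells, below the table median of 6.65, so its difference is one between dim signals and no fold is read from it. Ccne1 and Rag2 lost their calls without the replicate set, and so did Myc against AI-8-45 (adjusted p 0.132).

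Between AI-8-45 and AI-7-54, Ada (-0.61) and Ccne1 (-0.35) were lower on the MYB target list and kept their calls without the set. Bcl2, Gfi1 and Kit, the other measured MYB targets, were not called between AI-9-54 and AI-7-54 (-0.02, -0.15 and 0.05).

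Of 7 measured GATA3 targets in T cells, 3 were called lower and 0 higher between AI-9-54 and AI-7-54, against 7.48% and 7.11% of all genes. The chemokine receptor gene Ccr8 averaged 9.16 ± 0.10 in AI-9-54 cells, 9.24 ± 0.16 in AI-8-45 cells and 9.96 ± 0.19 in AI-7-54 cells, and was lower than in AI-7-54 cells for both AI-9-54 (-0.83, adjusted p 0.000363 in limma) and AI-8-45 (-0.75, adjusted p 0.00212). Bcl11b, a factor that fixes T-cell identity, averaged 11.77 ± 0.05 in AI-9-54 cells, 12.18 ± 0.05 in AI-8-45 cells and 12.17 ± 0.07 in AI-7-54 cells. It was lower in AI-9-54 cells than in either other group by a difference of -0.41, and both calls held without the set. Maf was lower in the same pair of comparisons (-0.33 and -0.53), and neither call held without the set (adjusted p 0.0626 and 0.0651). The cytokine genes Il4, Il5 and Il13 and the factor gene Zbtb7b were not called, and the median of the list was -0.03.

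Of 8 measured E protein targets that TAL1 opposes, 4 were called lower and 0 higher between AI-9-54 and AI-7-54, against 7.48% and 7.11% of all genes, with a median of -0.20. The pre-T-cell receptor gene Ptcra averaged 7.44 ± 0.13 in AI-9-54 cells, 7.73 ± 0.12 in AI-8-45 cells and 7.98 ± 0.27 in AI-7-54 cells. Against AI-7-54 it was lower in AI-9-54 cells (-0.58, adjusted p 0.000719 in limma) and in AI-8-45 cells (-0.30, adjusted p 0.0485), and the second call was lost without the set (adjusted p 0.41). Notch3 (-0.68), Rag2 (-0.53) and Notch1 (-0.27) were lower between AI-9-54 and AI-7-54, and lower again between AI-9-54 and AI-8-45 (-0.67, -0.64 and -0.26). The Rag2 signal was dim in all 3 groups, with a mean of 6.33 in AI-8-45 cells. Without the replicate set none of these 6 calls held, and the adjusted p of Notch3 was 0.217 and 0.353. Notch3 differed between AI-9-54 and AI-7-54 by -0.55 among replicates 1 and 2 and by -0.77 among replicates 3 and 4. The T-cell receptor complex genes Cd3e and Cd3g were not called between AI-9-54 and AI-7-54 (-0.02 and -0.09). Neither were the dim Cd4 (-0.12) and Hes1, whose difference was positive (0.06). Ptcra, Notch1, Bcl11b, Cd3e and Cd3g also stand on the T-lineage marker list, and Rag2 is also on the MYB target list. Runx1 is counted on both the partner list and the TAL1 circuit list. Kit is on both the MYB target list and the list of progenitor genes tied to LMO2 and LYL1.

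Of 10 measured progenitor genes tied to LMO2 and LYL1, among them Hhex, Kit, Nfe2, Meis1 and Spi1, limma called 0 in each of the 3 comparisons, and 0 had an unadjusted p under 0.05. Differences between AI-9-54 and AI-7-54 ran from -0.06 for Mycn to 0.06 for Hhex.

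**Figure D4:**
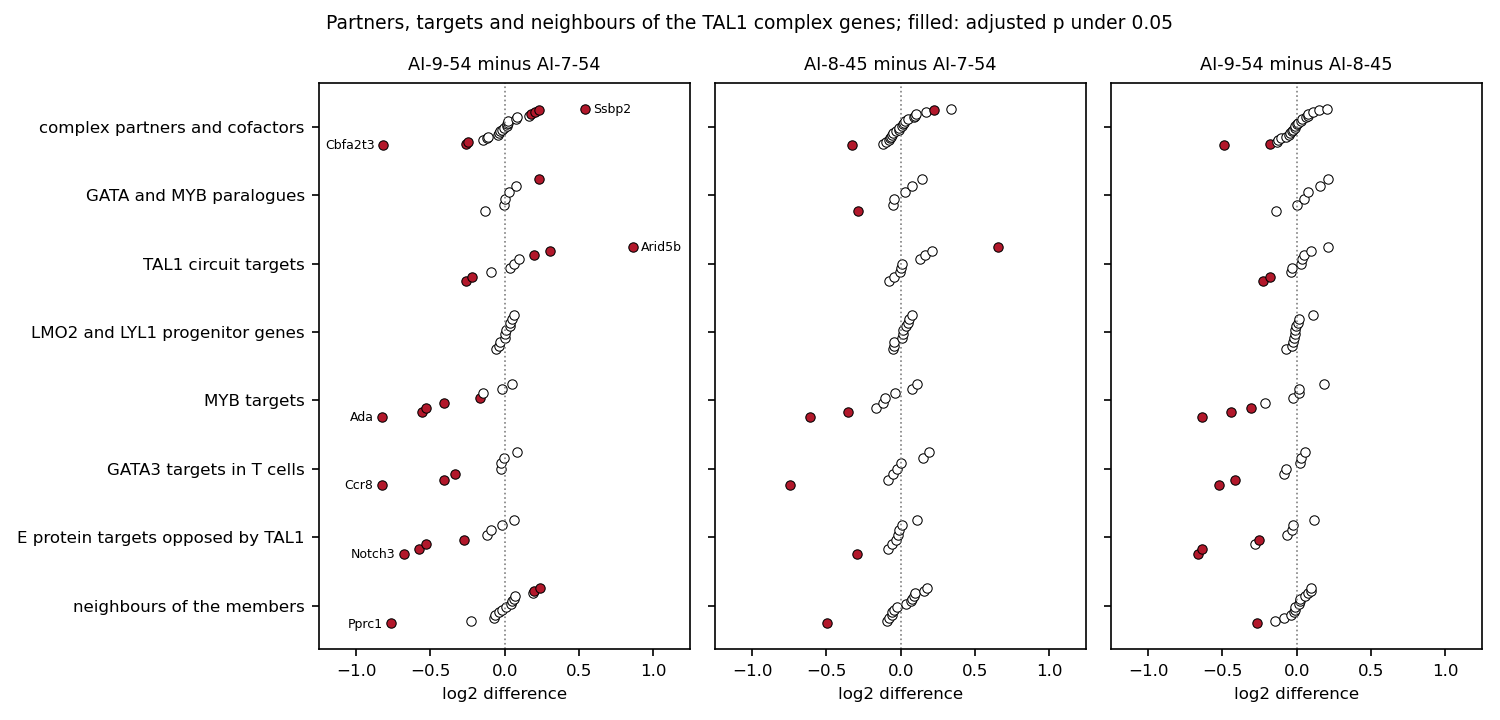
Log2 differences (x axis) of the measured genes of 7 lists and of the nearest protein-coding neighbours of the members (rows) in the 3 comparisons, with filled points where the adjusted p is under 0.05. MYB targets, GATA3 targets and E protein targets have filled points only below 0, and the partners and the TAL1 circuit targets have filled points on both sides between AI-9-54 and AI-7-54.

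The nearest annotated protein-coding genes on either side of each member, however distant, were also examined as neighbours, and 14 of 16 were measured. Pprc1, a coactivator of mitochondrial gene expression that lies next to Ldb1, averaged 9.20 ± 0.07 in AI-9-54 cells, 9.46 ± 0.06 in AI-8-45 cells and 9.95 ± 0.06 in AI-7-54 cells. It was lower between AI-9-54 and AI-7-54 (-0.76, adjusted p 1.53e-05 in limma), between AI-9-54 and AI-8-45 (-0.27, adjusted p 0.013) and between AI-8-45 and AI-7-54 (-0.50, adjusted p 0.000471). Ldb1 itself was not called in these comparisons. Without the set the call between AI-9-54 and AI-8-45 was lost (adjusted p 0.0585).

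On the 2 sides of the called members, Ahi1, beside Myb, was higher between AI-9-54 and AI-7-54 (0.20, adjusted p 0.0177 in limma), where Myb was lower. Celf2, the nearest on one side of Gata3 but 2460736 bases away, was likewise higher (0.24, adjusted p 0.0377 in limma). That call was lost without the set (adjusted p 0.0807), and Taf3 on the other side was not called (-0.07). Stil and Pdzk1ip1, which flank Tal1, differed by 0.04 and 0.05 and were not called. The neighbours of Lyl1, Lmo1, Lmo2 and Lmo4 that were measured were not called in any comparison.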

How the data were processed

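The deposited table holds RMA log2 values of 11 arrays, made by the authors with Partek 6.6, per the submitters' processing notes. The log2 scale was read from the range of 3.23 to 13.8. The genome build and annotation behind the probe sets were not given in the sources used here. Of 41345 probe sets, 23521 had 1 symbol, 1814 several and 16010 were unnamed here. Of those with 1 symbol, 23328 were matched by Entrez identifier to a gene table of assembly GRCm38.p6. They took the symbol given there, whether or not it differed.

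Linear models were fitted in R 4.3.3 with lmFit, contrasts.fit and eBayes of limma 3.58.1 (two-sided; Benjamini-Hochberg over all probe sets), with compound and replicate set as factors, 7 residual degrees of freedom and a prior of 2.64. List genes used their brightest probe set. The 7 lists held 73 genes, 67 of them measured. Every member and its 3 most similar genes per probe set qualified to be named, as did up to 4 called genes per list, comparison and direction, all called neighbours, and Lck. Genes that were not called are named in addition, chosen after their values were seen. The members and lists were chosen with earlier results of these data known. Replicate numbers did not pair arrays (same-number correlations of deviations were -0.212 to 0.303, and 2 of 10 exceeded 0.1). The fit was tested on simulated data. Figures used matplotlib 3.10.9 in Python 3.11.15.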

Additional observations from a re-analysis of the deposited data

How the results depend on the processing

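Of the alternatives run on member probe sets, those called in the report kept direction and call in 93 instances and lost the call in 24, and none reversed. Those not called stayed uncalled with the same sign in 546, became called in 9 and changed sign in 30.

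The number of called member probe sets between AI-9-54 and AI-7-54 was 4, and 4 with any 1 array left out. It was 3 with no replicate set, 2 with 1 probe set per gene, where only 8 were tested, and 0 within replicates 1 and 2 or within replicates 3 and 4 alone, which have few arrays. In the whole table, 3431 of 41345 were called with no replicate set, and 4036 of 22180 with 1 probe set per gene. Between AI-9-54 and AI-8-45 the number of called member probe sets was 1, and 0 to 1 with 1 array left out. It was 0 with no replicate set, with arrays scaled to the same median, with the 2 groups alone and within each set. It was 2 with either filter on dim probe sets, and 3 with only single-symbol probe sets or with an intensity trend. In the whole table, 847 of 20672 and 818 of 21451 were called with these filters. With single-symbol probe sets 800 of 23521 were called, and with the trend 707 of 41345. Between AI-8-45 and AI-7-54 the number of called member probe sets was 0, and 1 with an intensity trend, which called Myb 17239664. With that trend 1987 of 41345 were called in the table. With the replicate number as a replicate block, the calls numbered 4 between AI-9-54 and AI-7-54, 0 between AI-9-54 and AI-8-45 and 0 between AI-8-45 and AI-7-54. Of the 11 arrays, 3 correlated best with an array of their own number and 11 with one of their own set.

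Sign changes were found only for uncalled differences. For Lmo2 between AI-9-54 and AI-7-54 the values were -0.01158 with the replicate block, -0.01379 with equal medians, -0.00689 with quantile normalization, -0.0001962 with array weights, -0.00898 within replicates 3 and 4, -0.003968 with the 2 groups alone and -0.01381 to 0.01967 with 1 array left out. Within replicates 1 and 2, Tal1 was 0.02331, Lyl1 0.1192 and Lmo2 -0.00463 between AI-8-45 and AI-7-54, and Lyl1 was 0.03191 between AI-9-54 and AI-7-54. In that set, between AI-9-54 and AI-8-45, Lmo1 was 0.0525, Lmo2 0.00818, Lmo4 0.05807 and Ldb1 -0.0205, and within replicates 3 and 4 Lyl1 was 0.000985. With 1 array left out, the values between AI-8-45 and AI-7-54 ran from -0.1196 to 0.009943 for Tal1, from -0.1576 to 0.009519 for Lyl1 and from -0.01596 to 0.07679 for Lmo2. Between AI-9-54 and AI-8-45 they ran from -0.1068 to 0.03359 for Lyl1, -0.04844 to 0.03111 for Lmo1, -0.07613 to 0.01129 for Lmo2, -0.06214 to 0.03566 for Lmo4 and -0.008331 to 0.03499 for Ldb1. The cause was not tested.

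Of the 67 measured genes on the 7 lists, 23 were called between AI-9-54 and AI-7-54. The count was 10 between AI-9-54 and AI-8-45 and 8 between AI-8-45 and AI-7-54. In these comparisons in turn, 7.11%, 0.938% and 2.37% of all genes were called higher. The shares called lower were 7.48%, 0.902% and 3.51%. Without the replicate set the counts of list genes were 12, 2 and 4. With 1 array left out they were 15 to 23 (15 without AI-7-54 replicate 3), 6 to 10 and 4 to 7. Calls in the whole table numbered 4557, 512 and 1676 in the same order of comparisons. They numbered 3431, 129 and 1026 without the set, 3058, 170 and 689 with the replicate block, and 0, 0 and 0 within replicates 1 and 2. Within replicates 3 and 4 they numbered 1132, 7 and 3. With the 2 groups alone they numbered 3752, 254 and 716. With exactly 1 array left out, the counts ran from 3019 to 4957, from 199 to 443 and from 659 to 1433. Between AI-9-54 and AI-8-45 the count was 337 with equal medians, 847 and 818 with the filters on dim probe sets, 800 with single-symbol probe sets and 816 with 1 probe set per gene. The number of arrays limits the precision of all these values.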
